A study of Mus musculus with 21 samples.

Results

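Cells that had spent a day in the H3K27 demethylase inhibitor GSKJ4 were compared with untreated cells taken 8 h earlier, at the stage of Olig2-expressing motor neuron progenitors. The members are 6 of the 21 RNA-seq libraries of the series, 3 of treated D4H8 cells (day 4 plus 8 h) and 3 of untreated D4 cells, chosen by their labels alone. All libraries came from wild-type C57BL/6 mouse embryonic stem cells. These were grown on mitomycin-treated embryonic fibroblasts, formed into embryoid bodies and given 1 μM retinoic acid and 0.5 μM of the Sonic hedgehog agonist SAG from D2. DAPT, which blocks the gamma-secretase that activates Notch, was added at 5 μM at D4. At D5 the medium was changed to the base medium with DAPT, described without retinoic acid and SAG. Untreated D5 and D6 libraries served below for the later course, and the D6 cells had spent the last day in that medium. GSKJ4 was present from D3H8 to D4H8 in the treated cultures. The D4 cells therefore saw neither DAPT nor GSKJ4, and no treated D4 culture was among the samples. The 8 h of culture, the DAPT and the day of GSKJ4 cannot be told apart in this comparison alone, so the 3 untreated D4H8 libraries, which share the 8 h and the DAPT, were fitted beside it. The dose of GSKJ4 and any vehicle in the untreated cultures were not given in the sources used here. Nothing in the labels says which libraries were grown together, and p-values measure the spread between these libraries only.

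In the ventral neural tube, retinoic acid and Sonic hedgehog lead progenitors to express Olig2, and the proneural factor Neurog2 then drives them out of the cycle and into the motor neuron programme. Notch holds progenitors back: its ligands Dll1 and Dll4 on differentiating cells activate Hes genes in their neighbours, and DAPT removes that hold. GSKJ4 enters cells as an ester and inhibits Kdm6a and Kdm6b, JmjC enzymes that need iron and alpha-ketoglutarate and take methyl groups off lysine 27 of histone H3. The comparison asks which genes of the treated cells remained where they were at D4, which fell below D4, and which took levels that no untreated stage showed.

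The 6 libraries held 15714030 to 22725856 counted reads. Treated replicate 2 stood apart from the other treated libraries, with 5.33% mitochondrial reads against 2.00% and 2.27%, and D4 replicate 1 had 4.08% against 1.74% and 2.08%. GSKJ4 acts on the enzymes, so the level of their RNA does not check the labels. Kdm6b had 262, 167 and 156 CPM (read counts scaled to a common library size by TMM) in treated replicates 1, 2 and 3 and 109.8, 111 and 149 at D4, a log2 difference of 0.68 ± 0.21 (SE, edgeR adjusted p = 0.0602), which passed in DESeq2 (adjusted p = 0.0367) and in 3 of the 9 fits that left out 1 library. Among markers of other cells, the 17 feeder fibroblast genes summed to 866 to 934 CPM in treated libraries and 386 to 706 at D4. All 16 tested fibroblast markers had fitted differences above 0 (median 0.51), 1 of them, Col5a1, passed the test (4 were higher at an unadjusted p under 0.05), and none of the 17 was at 0. The 14 pluripotency genes summed to 250 to 501 CPM in treated and 164 to 409 at D4, and none passed by edgeR (3 were higher at an unadjusted p under 0.05, and 1 by DESeq2). Of the 15 spinal interneuron markers, which summed to 14.8 to 35.7 CPM in treated and 19.4 to 26.5 at D4, 4 (Evx1, Evx2, Sox14 and Vsx1) were at 3 counts or fewer in every treated library. Of 6 floor plate markers, which summed to 148 to 303 CPM in treated and 133 to 191 at D4, Shh was called higher. Foxa2, Ntn1 and Spon1 were within 2-fold of D4 by a test given below. Markers of endoderm, mesoderm, neural crest, glia and blood gave 3 calls among 15 tested genes, with Gata4 and Kdr higher and Sox17 lower. Beside these marker counts, 5.78% of all tested genes were higher than at D4 and 5.02% lower. Bulk RNA cannot tell fewer cells of a type from less RNA per cell.

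Of 16853 genes tested, 974 (5.78%) were higher in treated D4H8 than at D4 and 846 (5.02%) were lower, by quasi-likelihood tests in edgeR at a Benjamini-Hochberg adjusted p of 0.05. A further test asked which genes lay within 2-fold of D4, by 1-sided tests against both limits, and 7683 (45.6%) did, among them 47 and 65 of the genes called higher and lower. Neither test decided 7462 genes (44.3%). The treated and D4 libraries did not overlap for 5026 genes (29.8%). A fit on the 6 libraries alone called 162 higher and 161 lower. The call counts rested on single libraries. Without D4 replicate 1 there were 51 higher and 112 lower genes, without D4 replicate 2 there were 35 and 101, and without D4 replicate 3 there were 778 and 885. Without treated replicate 1 there were 262 and 274, and without treated replicate 2 or 3 there were 1613 and 1320 or 1409 and 1133. Without D4H8 replicates 1, 2 and 3 there were 671 and 597, 453 and 401, and 579 and 487. In every refit that left out 1 of the 9 libraries, 25 genes remained higher and 90 remained lower. The median log2 difference over all genes was 0.07. In the untreated cells, the 8 h from D4 to D4H8 raised 161 genes (0.955%) and lowered 2 (0.0119%), Fgf15 and Ano1, both of which were lower in treated cells too. With the replicate number as a block, which pairs the D4 and untreated D4H8 libraries, 270 genes rose and 7 fell in that step.

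**Figure D1:**
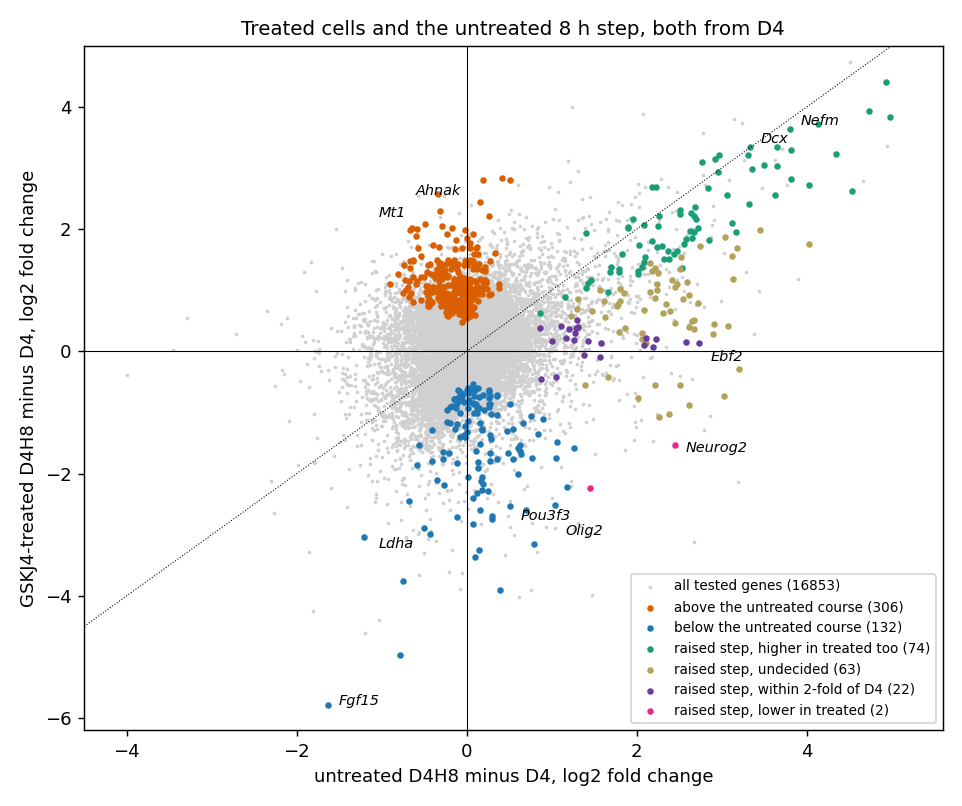
Each point is a gene, with its fitted log2 fold change from D4 to untreated D4H8 on the x axis and from D4 to GSKJ4-treated D4H8 on the y axis (3 libraries a group, dotted line: equal change). The 74 step genes that also rose in treated cells lie near or below the line, the 22 that stayed within 2-fold of D4 lie near 0 on the y axis, and the 306 and 132 genes outside the untreated course lie above and below 0 near the y axis.

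The genes that normally rise in those 8 h did not move as 1 block in treated cells. Of the 161, 74 (46.0%) were higher in treated cells than at D4, 22 (13.7%) stayed within 2-fold of D4, and 2 (1.24%) fell below it. The remaining 63 (39.1%) were undecided, with fitted differences above 0 in 53 of them. The median log2 change of the 161 genes from D4 was 2.30 in untreated and 1.18 in treated cells. These 2 contrasts share the D4 libraries. The 161 were also chosen for high levels in the untreated D4H8 libraries, so the gap between the medians is in part fixed by that choice, and a count of them against untreated D4H8 would be no test. Of all tested genes, 741 (4.40%) were lower and 897 (5.32%) higher in treated than in untreated D4H8. Of the 270 step genes of the blocked fit, 107 rose in treated cells, 49 stayed within 2-fold of D4 and 10 fell below it. With each contrast fitted on its own 6 libraries, the step raised 546 genes and the order changed. Of these, 45 rose in treated cells, 128 stayed within 2-fold of D4 and 11 fell below it. The step itself rested on single libraries, with 7, 30 and 6 raised genes without D4 replicates 1, 2 and 3 and 15, 72 and 96 without D4H8 replicates 1, 2 and 3. Without treated replicate 2, the untreated step held 256 raised genes, of which 95 rose in treated cells, 69 stayed within 2-fold of D4 and 12 fell below it. Without treated replicate 1 the 3 counts were 36, 79 and 19 of 321, and without treated replicate 3 they were 126, 17 and 2 of 210.

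The 2 step genes that fell below D4 were Neurog2 and Efcc1. Neurog2 (chr3:127633135-127635631 on GRCm38, plus strand) is the proneural bHLH factor of this lineage. It had 14.1, 19.1 and 21.1 CPM in D4 replicates 1, 2 and 3, 111, 88.8 and 93.3 at untreated D4H8 and 6.96, 3.44 and 8.10 in treated cells. All 3 treated libraries were below all 3 D4 libraries, which in turn were below all 3 untreated D4H8 libraries. The rule for named genes required the first separation, here and for Efcc1, and the call in the step made the second likely. The untreated step was 2.45 ± 0.28 (log2 ± SE, edgeR adjusted p = 0.0049) and the treated difference from D4 was -1.53 ± 0.28 (edgeR adjusted p = 0.0121). The latter missed the threshold in 1 refit, without D4 replicate 2 (edgeR adjusted p = 0.0529). Efcc1, which encodes an EF-hand and coiled-coil protein, had 7.88, 8.72 and 10.1 CPM at D4, 34.6, 20.4 and 17.4 at untreated D4H8 and 2.23, 1.54 and 1.84 in treated cells, again in 3 separate bands (log2 difference from D4 -2.23 ± 0.31, edgeR adjusted p = 0.00463). Untreated Neurog2 levels fell later in the course, to 4.07 to 5.07 CPM at D6, a range that overlaps the treated one.

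The other proneural bHLH factors mostly stayed undecided. Of the 8 tested members of that list, Neurog2 was the only one called against D4 by edgeR, and the list's median was -0.39. DESeq2 also called Nhlh1, a bHLH gene of newborn neurons, as higher (adjusted p = 0.00469). Neurog1 was at 12.4, 1.24 and 4.31 CPM in treated libraries and 7.88, 12.3 and 10.0 at D4, with 59.0 to 124 in untreated D4H8. Neurod4, which acts downstream of the neurogenins, was at 45.4, 40.0 and 15.6 CPM in treated libraries against 55.9, 59.6 and 34.9 at D4 and 165 to 343 at untreated D4H8. For both genes the treated and D4 libraries overlapped, while every treated library was below every untreated D4H8 library. The differences from untreated D4H8 were -3.76 ± 0.60 for Neurog1 (edgeR adjusted p = 0.00538) and -2.77 ± 0.39 for Neurod4 (edgeR adjusted p = 0.00329). Of the 8 tested members, 6 were raised step genes, and for such genes a difference from untreated D4H8 is in part fixed by that choice. The homeodomain factor Isl1, which specifies motor neurons, also had overlapping treated and D4 libraries below those of untreated D4H8, with 30.1, 19.2 and 12 CPM in treated, 10.5, 22.4 and 12.4 at D4 and 139, 104 and 92.3 at untreated D4H8. Nhlh1 and its relative Nhlh2 had fitted differences from D4 of 1.54 ± 0.46 and 1.57 ± 0.50 that did not pass in edgeR (adjusted p = 0.0504 and 0.0647). Both passed without treated replicate 3 (edgeR adjusted p = 0.0302 and 0.014) and Nhlh1 also without treated replicate 2 (edgeR adjusted p = 0.0243).

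**Figure D2:**
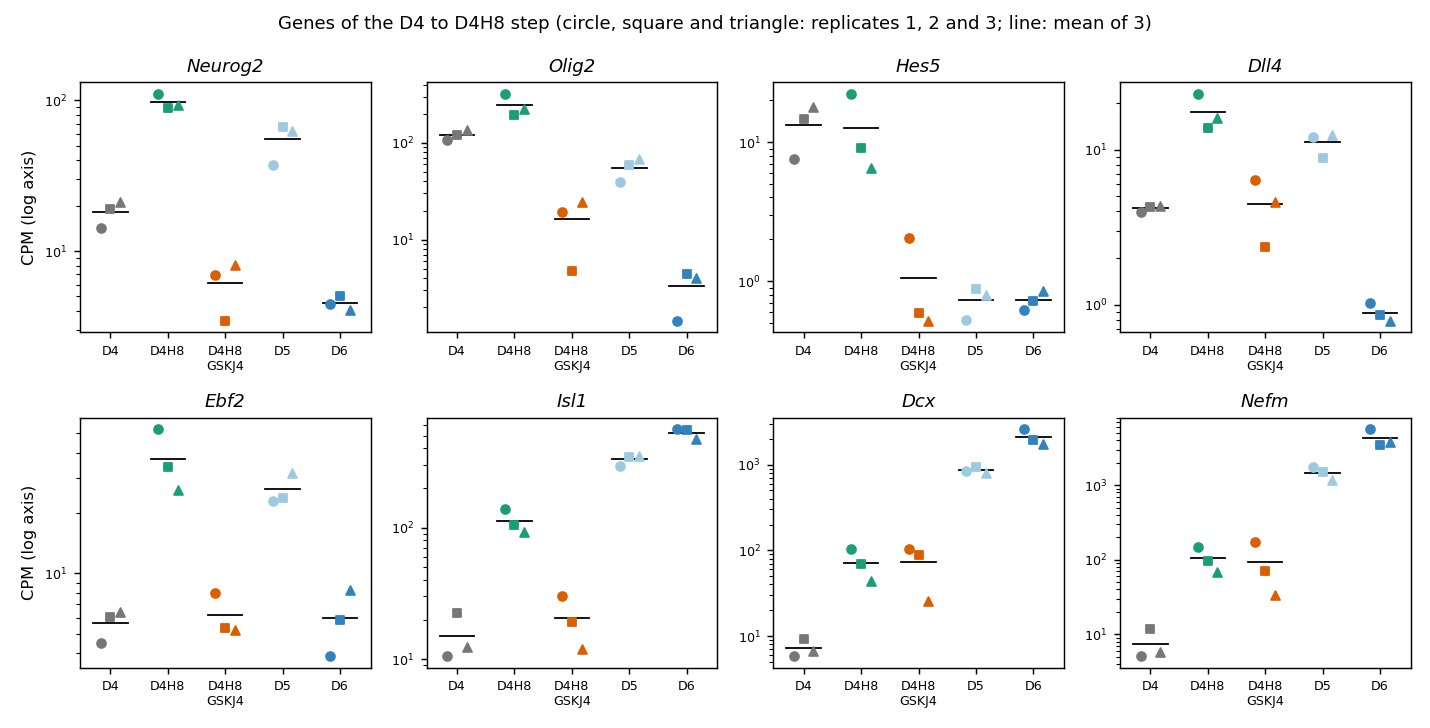
CPM on a log axis for 8 genes in 3 libraries of each group (symbols mark replicates, lines the mean of 3). Treated D4H8 libraries lie below D4 for Neurog2, Olig2 and Hes5, beside D4 for Dll4, Ebf2 and Isl1, and beside untreated D4H8 for Dcx and Nefm.

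The 22 genes that stayed at D4 were led, by the size of their untreated step, by Ebf2, Lzts1, Prmt8, Rhbdl3, Rgs8 and Dll4. Ebf2 (chr14:67233292-67430918, plus strand), a helix-loop-helix factor of differentiating neurons, had 4.51, 6.07 and 6.45 CPM at D4, 52.5, 33.8 and 25.9 at untreated D4H8 and 7.96, 5.33 and 5.23 in treated cells. The treated libraries overlapped those of D4 and were all below those of untreated D4H8. The treated difference from D4 was 0.14 ± 0.30, within 2-fold by the equivalence test (edgeR adjusted p = 0.0199). The Notch ligand Dll4 (chr2:119325784-119335962, plus strand) had 6.40, 2.37 and 4.59 CPM in treated libraries against 3.96, 4.28 and 4.34 at D4 and 13.7 to 22.9 at untreated D4H8, a difference from D4 of 0.11 ± 0.34 (equivalence, edgeR adjusted p = 0.0294). Lzts1, a leucine zipper protein, Prmt8, an arginine methyltransferase of neurons, Rhbdl3, a rhomboid-like protein, and Rgs8, a regulator of G-protein signalling, had differences from D4 of 0.15, 0.20, 0.07 and 0.22. The cyclin-dependent kinase inhibitor Cdkn1c was also in this class, at 93.2, 64.8 and 84.7 CPM in treated, 46.6, 59.0 and 66.2 at D4 and 119.8 to 174 at untreated D4H8. The class itself nearly fixes that its genes lie below untreated D4H8. At this spread no gene could be placed within 1.5-fold of D4, so "stayed" means within 2-fold and no closer. No lowered step gene stayed at D4.

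Among the named step genes that also rose in treated cells, the largest differences from D4 were in Nefm, Dcx, Akap6 and Plxna4. Nefm (chr14:68082590-68124846, minus strand), the medium neurofilament chain, had 175, 71.0 and 33.3 CPM in treated libraries, 5.05, 11.7 and 5.86 at D4 and 146, 97.7 and 68.3 at untreated D4H8. Dcx (chrX:143855842-143933311, minus strand), a microtubule-binding protein of migrating neurons, had 103, 89.1 and 25.8 CPM in treated, 5.79, 9.13 and 6.74 at D4 and 103, 68.6 and 43.5 at untreated D4H8. Both genes were above D4 in every treated library, which the rule for named genes required. Both overlapped untreated D4H8, and treated replicate 3 was the lowest treated library for both. The differences from D4 were 3.65 ± 0.56 for Nefm (edgeR adjusted p = 0.0067) and 3.35 ± 0.47 for Dcx (edgeR adjusted p = 0.0051), and both passed in all 9 refits. Against untreated D4H8 they were -0.16 ± 0.49 and 0.02 ± 0.42. Akap6, a kinase-anchoring protein, and Plxna4, a semaphorin receptor, were 3.22 ± 0.53 and 3.16 ± 0.53 above D4, and each missed the threshold without D4 replicate 1 or D4 replicate 2 (edgeR adjusted p up to 0.0552 and 0.0535). Of the 74 genes, 13 were within 2-fold of untreated D4H8, by a test added after the data were seen that placed 7893 of all tested genes (46.8%) there, and 2 were below it.

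Beside each list count here and below stand the 5.78% of all tested genes higher than D4 and the 5.02% lower. By list, 8 of 18 neuronal differentiation genes rose over D4 and none fell, with a median of 1.48. They were Dcx, Scrt1, Scrt2, Ebf1, Stmn2, Ebf3, Myt1 and St18, with differences of 1.76 to 3.35. Only Dcx of the 8 passed in all 9 refits, and 14 of the 18 were higher at an unadjusted p under 0.05 with none lower. The list's median was 2.59 in the untreated step and -1.08 against untreated D4H8, where 5 members were lower and none higher. Of the motor neuron list, 6 of 19 rose and none fell, with a median of 0.81: the neurofilament genes Nefm and Nefl, Crmp1, the guidance ligand Slit2, Onecut2 and the vesicular acetylcholine transporter Slc18a3. Nefm, Nefl and Slit2 passed in all 9 refits, and 10 of the 19 were higher and none lower at an unadjusted p under 0.05. The median of this list was 2.62 in the untreated step and -0.55 against untreated D4H8, where 5 members were lower and none higher. As 13 and 10 members of the 2 lists were raised step genes, chosen for high levels in untreated D4H8, these counts against it are no test. Slit2 was at 63.1, 75.3 and 34.3 CPM in treated, 10.2, 12.4 and 15.1 at D4 and 57.8, 62.5 and 59.1 at untreated D4H8, a difference from D4 of 2.21 ± 0.27 (edgeR adjusted p = 0.00284) and from untreated D4H8 of -0.06 ± 0.26. Lhx3, the partner of Isl1, was at 3.40, 0.651 and 2.47 CPM in treated against 0.892, 3.70 and 4.51 at D4 and 16.4 to 20.6 at untreated D4H8. The treated and D4 libraries overlapped for Lhx3 and Isl1 and did not for Slit2.

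Of 12 factors of the motor neuron progenitor and its neighbouring domains, 7 were lower and none higher in edgeR, against 5.02% of all genes lower, and the median was -1.59. At an unadjusted p under 0.05 the counts were 8 and 0, as they were in DESeq2, and 1 member, Irx5, was within 2-fold of D4. Of the 7, 6 (Olig2, Olig1, Nkx6-2, Pax6, Dbx1 and Sp8) passed in all 9 refits, and Nkx2-9 missed the threshold without D4 replicate 2 (edgeR adjusted p = 0.0555). Olig2 (chr16:91225457-91228677, plus strand), which marks the motor neuron progenitor, had 19.3, 4.74 and 24.6 CPM in treated libraries, 108, 121 and 135 at D4 and 322, 194 and 222 at untreated D4H8. The 3 groups did not overlap, and treated replicate 2 was the lowest of all. The difference from D4 was -2.88 ± 0.44 (edgeR adjusted p = 0.0067), and the log2 difference was -2.46 without treated replicate 2. Olig1 followed with 3.23, 1.01 and 3.56 CPM in treated against 12.1, 21.4 and 22.2 at D4. Pax6, a factor of progenitors across the tube, had 22.5, 36.4 and 36.2 CPM in treated, 112, 68.8 and 82.7 at D4 and 51.3, 52.7 and 67.6 at untreated D4H8, so that its treated libraries fell below both stages (difference from D4 -1.44 ± 0.23, edgeR adjusted p = 0.00868). Dbx1, which marks a domain dorsal to the motor neuron progenitors, was at 0, 0.415 and 0.517 CPM in treated and 10.7, 5.32 and 4.22 at D4, a fitted difference of -4.39 ± 0.66. Nkx6-1, which also remains in motor neurons, was not called, at 89.2, 22.3 and 30.1 CPM in treated and 75.7, 79.6 and 103 at D4, although it passed without treated replicate 1 (difference -1.70, edgeR adjusted p = 0.0132).

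Of 15 neural stem and progenitor genes, 7 were lower and none higher in edgeR (11 and 0 at an unadjusted p under 0.05, 8 and 0 in DESeq2), with a median of -0.90. Another 5 (Sox9, Nes, Lin28a, Lin28b and Vim) were within 2-fold of D4. Those lower were Sox1, Sox3, Fabp7, Rfx4, Hmga2, Pou3f2 and Pou3f3, and Fabp7 and Pou3f3 passed in all 9 refits. Of these, 4 (Fabp7, Rfx4, Pou3f2 and Pou3f3) were below every untreated library of D4, D4H8, D5 and D6. The POU factor Pou3f3 rose over the untreated course, from 21 to 28.4 CPM at D4 to 76.9 to 111 at D6, and had 5.51, 3.20 and 3.79 CPM in treated libraries. Its difference from D4 was -2.53 ± 0.30 (edgeR adjusted p = 0.00257).

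Part of the Notch pathway was lower than at D4. Of 16 tested Notch pathway genes 5 fell (the targets Hes5, Hey2 and Nrarp, the ligand Jag1 and the glycosyltransferase Lfng) and 1 rose (the receptor Notch2), with a median of -0.92. Dll4, Notch1, Notch3 and Hes1 were within 2-fold of D4. Hes5 (chr4:154960923-154962371, plus strand) had 2.06, 0.592 and 0.517 CPM in treated, 7.58, 14.7 and 17.8 at D4 and 22.3, 9.11 and 6.51 at untreated D4H8. Its treated libraries were below all D4 and untreated D4H8 libraries and spanned the 0.526 to 0.877 CPM of untreated D5. The difference from D4 was -3.63 ± 0.61 (edgeR adjusted p = 0.00872). Hey2 had 0.724, 0.829 and 0.517 CPM in treated against 3.91, 5.20 and 2.93 at D4 and 6.19 to 10.1 at untreated D4H8, and it was below every untreated library. Jag1 was below the course too, and Hes5 and Hey2 passed in all 9 refits. Jag1, Nrarp and Lfng missed the threshold without D4 replicate 2 (edgeR adjusted p = 0.0533, 0.0765 and 0.14), and Jag1 and Lfng also without D4 replicate 1. The ligand Dll1 was not called against D4 (difference -1.08 ± 0.44, edgeR adjusted p = 0.123), at 27.8, 5.27 and 10.3 CPM in treated and 28.2, 31.4 and 33.4 at D4, although all 3 treated libraries were below D4. It passed without treated replicate 1 (difference -1.97, edgeR adjusted p = 0.0122) and with the replicate number as a block (edgeR adjusted p = 0.0401). Its difference from untreated D4H8 was -3.35 ± 0.46 (edgeR adjusted p = 0.00299). Notch2 was higher by 0.68 ± 0.20 (edgeR adjusted p = 0.0463), a call lost in 8 of the 9 refits, all but the one without treated replicate 3.

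The promoter of Hes5 is shown because Notch acts on it through RBPJ sites. Capitals mark GTGGGAA, the core bound by RBPJ, or its reverse complement, in the 300 bases around the RefSeq gene start (250 before, 50 after, GRCm38.p6, chr4:154960673-154960972, plus strand, with 2 matches). Among 14878 promoters of tested genes, 6.24% held such a match, and among those of genes above and below the untreated course 6.31% and 6.2% did.
Hes5 promoter: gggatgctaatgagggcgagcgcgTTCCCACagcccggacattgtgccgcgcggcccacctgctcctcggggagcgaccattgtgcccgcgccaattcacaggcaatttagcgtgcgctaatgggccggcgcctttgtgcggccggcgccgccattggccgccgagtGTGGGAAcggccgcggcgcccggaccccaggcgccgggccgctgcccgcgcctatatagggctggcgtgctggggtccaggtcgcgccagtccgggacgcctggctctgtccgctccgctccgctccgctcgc

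Other patterning pathways were mixed. Of 14 tested Wnt genes, 6 were lower and 1, the receptor Fzd5, was higher (median -0.79). The secreted inhibitor Sfrp1 had 27.1, 19.6 and 25.3 CPM in treated and 82.3, 112 and 108 at D4 (difference -2.05 ± 0.20, edgeR adjusted p = 0.000612) and was below every untreated library, and Sfrp2, Wnt1, Sp5, Lef1 and Lgr5 were lower as well. Of the 6, 3 passed in all 9 refits. Sonic hedgehog pathway genes had a median of -0.18. The targets Gli1 and Hhip were lower, at -1.19 ± 0.23 and -0.72 ± 0.20, the coreceptor Cdon was higher at 0.70 ± 0.18, and the ligand Shh was at 5.79, 2.25 and 2.18 CPM in treated against 0.594, 0.404 and 1.17 at D4 (difference 2.25 ± 0.55, edgeR adjusted p = 0.0278). None of these 4 calls passed in all 9 refits, and all 4 were lost without D4 replicate 1 (edgeR adjusted p = 0.0576, 0.19, 0.105 and 0.128) or D4 replicate 2. Of the 22 Hox genes, which set position along the body axis, 8 were within 2-fold of D4, a share under the 45.6% of all genes, Hoxd3 and Hoxd4 were lower (-1.52 and -1.63) and Hoxb1 was higher (0.84). All 3 were outside the untreated course, and only Hoxd4 passed in all 9 refits, the others being lost without D4 replicate 1 or 2 (edgeR adjusted p up to 0.091 and 0.0875). Of 15 retinoic acid genes, Cyp26b1 and Dhrs3, which break down or store retinoids, were higher and the binding protein Crabp2 was lower, with a median of 0.35. Of 13 BMP and dorsal genes, Bmp7 was higher and Msx1 lower, with a median of 0.16. As 5.78% of all tested genes were higher and 5.02% lower, the few calls in the Hox, retinoic acid and BMP lists say little about those lists.

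Cell cycle genes that passed were all lower than at D4, apart from the inhibitor Cdkn1a. Of 23 G1/S and replication genes 11 fell and none rose in edgeR (15 and 0 in DESeq2, 19 and 0 at an unadjusted p under 0.05), with a median of -0.60 and fitted differences under 0 in 22. Of 21 mitosis genes 6 fell and none rose in edgeR (11 and 0 in DESeq2, 12 and 0 at an unadjusted p under 0.05), with a median of -0.49 and all 21 under 0. Within 2-fold of D4 were 9 of the G1/S and 14 of the mitosis genes, and in all 9 refits 3 and 1 of the calls passed. Pcna, the replication clamp, had 188, 193 and 262 CPM in treated, 667, 514 and 402 at D4 and 452, 405 and 392 at untreated D4H8 (difference from D4 -1.27 ± 0.21, edgeR adjusted p = 0.00867). Of the D cyclins, Ccnd1 and Ccnd2 fell further, while Ccnd3 was within 2-fold of D4. Ccnd2 had 189.7, 198 and 149 CPM in treated, 1013, 809 and 818 at D4 and 898, 699 and 694 at untreated D4H8, and its treated libraries were all below both untreated stages. The difference from D4 was -2.27 ± 0.19 (edgeR adjusted p = 0.000229), and for Ccnd1 it was -1.68 ± 0.16 (edgeR adjusted p = 0.000612), and both passed in all 9 refits, although reads of Ccnd1 overlap a tested neighbour. The inhibitor Cdkn1a rose from 70.6, 56.5 and 60.2 to 208, 93.0 and 114 CPM, a difference of 1.17 ± 0.26 (edgeR adjusted p = 0.0213), which missed the threshold without D4 replicate 1 or 2 (edgeR adjusted p = 0.0809 and 0.0967).

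**Figure D3:**
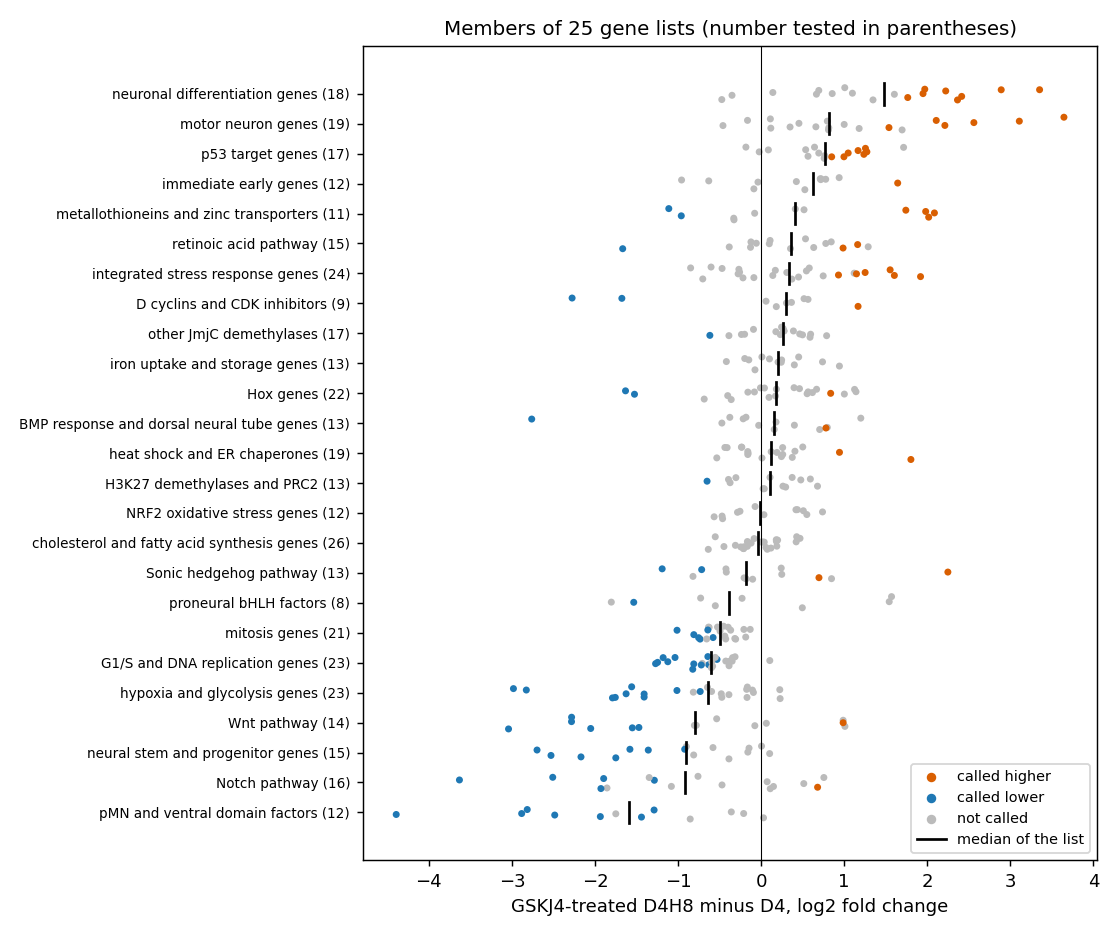
Each point is a tested member of 1 of 25 gene lists, at its fitted log2 difference between treated D4H8 and D4 (3 libraries each), coloured by edgeR call, with the list's median as a bar. Medians run from -1.59 for the motor neuron progenitor and ventral domain factors to 1.48 for the neuronal differentiation genes.

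Some genes left the untreated course. A gene was placed outside it when it differed from D4 and from untreated D4H8 in the same direction and its 3 treated libraries lay beyond all 12 untreated libraries of D4, D4H8, D5 and D6. Above the course were 306 genes (1.82% of those tested), with a median of 1.02 over D4, and below it were 132 (0.783%), with a median of -1.27. Without D4 replicate 2 the 2 counts were 9 and 39, without D4 replicate 1 they were 16 and 46, and without treated replicate 2 they were 537 and 200. By the rule for named genes, the 6 lowest below the course were Fgf15, Ptn, Ldha, Rmst, Ankrd37 and Pou3f3, and each passed against D4 in all 9 refits.

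The largest fall was in Fgf15 (chr7:144896531-144900953, plus strand), an FGF ligand of the neural tube. It had 22.8, 17.2 and 12.6 CPM at D4, 7, 4.94 and 4.60 at untreated D4H8, 3.45 to 5.41 at D5, 0.592 to 2.27 at D6 and 0.278, 0.118 and 0.517 in treated cells. Untreated cells thus lowered it too, and the treated libraries were below the lowest D6 library, which its place below the course required. The fitted difference from D4 was -5.78 ± 0.44 (edgeR adjusted p = 0.000151) from 2 to 9 reads in each treated library. Ptn, which encodes the growth factor pleiotrophin, had 3.67, 2.07 and 4.25 CPM in treated against 45.7, 20.1 and 18.2 at D4 (difference -3.03 ± 0.38), and untreated levels dipped to 5.53 to 8.47 at D5 before rising to 40.6 to 77.2 at D6. Rmst, a long noncoding RNA of neural progenitors, had 1.34, 0.296 and 1.03 CPM in treated against 9.71, 5.89 and 4.86 at D4 (difference -2.90 ± 0.45).

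Ldha and Ankrd37 belong to the hypoxia and glycolysis genes, which HIF factors induce when oxygen is low. Of 23 members 10 were lower than D4 and none higher in edgeR (11 and 0 in DESeq2, 12 and 0 at an unadjusted p under 0.05), with a median of -0.65, and 7 of the 10 were below the course (Ankrd37, Bnip3, Egln3, P4ha1, Pgk1, Ldha and Aldoa). Ldha (chr7:46841475-46855627, plus strand), lactate dehydrogenase, had 121, 112 and 274 CPM in treated, 1170.0, 1505 and 1389 at D4 and 781, 1041 and 1138 at untreated D4H8. All 3 treated libraries were below the 604 to 824 CPM of untreated D6, which its place below the course required. The difference from D4 was -2.98 ± 0.34 (edgeR adjusted p = 0.00194). Pgk1, phosphoglycerate kinase, had 229, 256 and 336 CPM in treated against 874, 1000.0 and 939 at D4 (difference -1.75 ± 0.20, edgeR adjusted p = 0.00194), and the glucose transporter Slc2a1 had 253, 260.1 and 506 against 814, 942 and 1284. For Ldha, Pgk1 and Slc2a1 treated replicate 3 was the highest treated library and still below every D4 library. Ankrd37 had 0.557, 0.651 and 1.21 CPM in treated and 4.90, 5.89 and 6.68 at D4. The other members called lower were Hk2 and Eno1. Ankrd37, Ldha, Pgk1, Bnip3 and Eno1 passed in all 9 refits, while Aldoa, Egln3, P4ha1, Slc2a1 and Hk2 were lost without D4 replicate 2 (edgeR adjusted p of 0.0504 to 0.113) and P4ha1, Egln3 and Hk2 in other refits too.

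The Ldha promoter is printed for the core of the hypoxia response element. Capitals mark ACGTG or GCGTG on either strand in the first of 2 RefSeq starts (chr7:46845554-46845853, GRCm38.p6, plus strand), which held 7 matches, some of them overlapping. The second start held 2, Bnip3 held 5, Ankrd37 4, P4ha1 3, Pgk1 2 and Egln3 1, and the 3 Aldoa starts held 0, 1 and 1. The short motif was common, in 60.6% of all 14878 promoters, 66.7% of the 129 of genes below the course and 58.5% of the 301 of genes above it.
Ldha promoter: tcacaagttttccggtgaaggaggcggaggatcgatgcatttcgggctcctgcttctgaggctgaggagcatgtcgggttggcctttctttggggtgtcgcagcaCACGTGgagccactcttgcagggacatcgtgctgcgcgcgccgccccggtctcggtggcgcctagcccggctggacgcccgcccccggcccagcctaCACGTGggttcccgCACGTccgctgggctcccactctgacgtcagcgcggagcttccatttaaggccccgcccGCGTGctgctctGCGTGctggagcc

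By the same rule, the 6 highest above the course were Cemip, Ahnak2, Ahnak, mt-Rnr1, Zfp469 and Mt1. Ahnak (chr19:8989284-9076914, plus strand) and Ahnak2 encode giant scaffold proteins. Ahnak had 295, 255 and 80.8 CPM in treated, 41.2, 43.1 and 33.8 at D4 and 54.5, 41.4 and 33.9 at untreated D4H8 (difference from D4 2.44 ± 0.38, edgeR adjusted p = 0.00707), and was the only 1 of the 6 that passed in all 9 refits. Cemip, which takes part in hyaluronan breakdown, had 10.6, 3.44 and 3.39 CPM in treated against 0.578 to 0.941 at D4, with replicate 1 the highest. Zfp469, a zinc finger protein, had 31.1, 9.06 and 7.70 CPM against 2.58 to 4.01, again with replicate 1 the highest. The mitochondrial rRNA mt-Rnr1 had 374, 967 and 187 CPM in treated against 156, 88.8 and 73.9 at D4, its highest value being in the library with 5.33% mitochondrial reads, and its difference was 1.41 without that library against 2.29 with it. Cemip, Ahnak2, mt-Rnr1 and Mt1 missed the threshold without D4 replicate 1 or 2 (edgeR adjusted p of 0.0542 to 0.0927), and Zfp469 without any 1 of the D4 libraries or treated replicate 1 (up to 0.106). The part of the fibroblast signal given above in these rises was not tested.

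Of 11 metallothionein and zinc transporter genes 4 were above the course. Mt1 (chr8:94179082-94180327, plus strand), a metallothionein that binds zinc and other metals, had 970.4, 311 and 892 CPM in treated, 163, 150.0 and 205 at D4 and 60.3, 143 and 160.4 at untreated D4H8 (difference from D4 2.09 ± 0.42, edgeR adjusted p = 0.0172). Untreated levels fell over the course to 24.6 to 75.6 CPM at D6. Its neighbour Mt2 had 786, 310.3 and 802 CPM in treated and 174, 142 and 172 at D4. Slc30a1 (chr1:191906767-191913247, plus strand), the zinc exporter of the cell membrane, had 85.3, 95.5 and 75.9 CPM in treated and 26.1, 21.4 and 30.4 at D4, with no treated library far from the others (difference 1.74 ± 0.19, edgeR adjusted p = 0.00194, passed in all 9 refits). Slc30a2, another zinc exporter, had 3.84, 3.44 and 4.13 against 0.694, 0.751 and 1.41 CPM. All 4 were higher in each treated library than in any of the 12 untreated ones, which their place above the course required. Of the 11 tested members 5 had fitted differences under 0, 1, the zinc sensor Mtf1, was within 2-fold of D4, and 2 zinc importers, Slc39a10 and Slc39a14, fell (-0.96 ± 0.26 and -1.11 ± 0.20). Slc39a14 also passed in all 9 refits. Mt1, Mt2, Slc30a2 and Slc39a10 were lost without D4 replicate 1 (edgeR adjusted p = 0.0864, 0.0774, 0.091 and 0.138) or D4 replicate 2.

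The promoters of Mt1 and Slc30a1 are printed for the core of the metal response element, on which Mtf1 acts. Capitals mark TGCACNC or TGCGCNC on either strand. Mt1 (chr8:94178839-94179138, GRCm38.p6, plus strand) held 3 matches and Slc30a1 (chr1:191906531-191906830, plus strand) 2, while Mt2 held 4 and Slc30a2 2. The motif was in 36% of all 14878 promoters, 42.2% of those of genes above the course and 41.9% of those of genes below it.
Mt1 promoter: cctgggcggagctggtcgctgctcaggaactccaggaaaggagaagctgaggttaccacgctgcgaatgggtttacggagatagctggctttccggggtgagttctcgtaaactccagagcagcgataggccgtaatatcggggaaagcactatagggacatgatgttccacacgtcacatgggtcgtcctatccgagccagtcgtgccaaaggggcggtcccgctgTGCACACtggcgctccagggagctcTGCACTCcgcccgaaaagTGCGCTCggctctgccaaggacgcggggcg
Slc30a1 promoter: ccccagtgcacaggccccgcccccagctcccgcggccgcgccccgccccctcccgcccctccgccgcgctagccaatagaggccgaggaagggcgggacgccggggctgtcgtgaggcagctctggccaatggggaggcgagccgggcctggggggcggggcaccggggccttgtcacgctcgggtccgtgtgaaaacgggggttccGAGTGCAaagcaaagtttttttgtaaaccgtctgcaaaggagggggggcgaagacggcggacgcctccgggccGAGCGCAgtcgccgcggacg

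**Figure D4:**
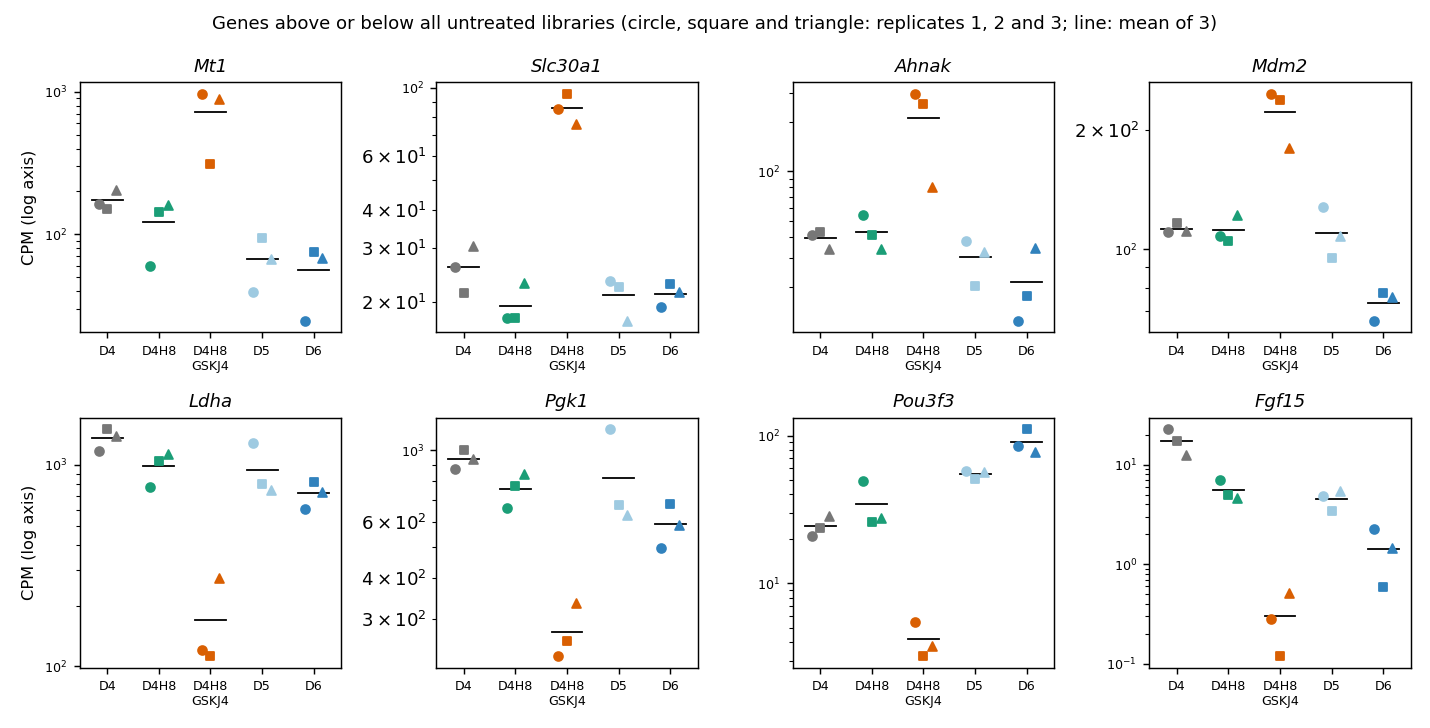
CPM on a log axis for 8 genes in 3 libraries of each group (symbols mark replicates, lines the mean of 3). Every treated library is above all 12 untreated libraries for Mt1, Slc30a1, Ahnak and Mdm2 and below all 12 for Ldha, Pgk1, Pou3f3 and Fgf15. The 8 genes were taken from the classes outside the untreated course, which require this.

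Part of each of 2 stress lists also rose. Of 17 p53 target genes 7 were higher and none lower in edgeR (7 and 0 in DESeq2, 12 and 0 at an unadjusted p under 0.05), with a median of 0.77, and 5 were above the course (Mdm2, Ccng1, Trp53inp1, Perp and Tnfrsf10b). Mdm2, the ubiquitin ligase that limits p53, had 247, 238 and 181 CPM in treated, 110.4, 117 and 111 at D4 and 108, 105 and 122 at untreated D4H8 (difference from D4 1.00 ± 0.16, edgeR adjusted p = 0.00868). It missed the threshold in 1 refit, without D4 replicate 2 (edgeR adjusted p = 0.0506). Of 24 integrated stress response genes, which follow Atf4, 6 were higher and none lower in edgeR (7 and 0 in DESeq2, 8 and 2 at an unadjusted p under 0.05), with a median of 0.34: Ddit3, Sesn2, Trib3, Gdf15, Atf5 and Cebpb. Within 2-fold of D4 were 7 of the 24 (Atf4, Asns, Shmt2, Mthfd2, Slc7a5, Slc3a2 and Vldlr), and 9 had fitted differences under 0. Ddit3 had 31.7, 17.6 and 23.4 CPM in treated and 11.6, 11.3 and 8.15 at D4 (difference 1.25 ± 0.26, edgeR adjusted p = 0.0186), lost without D4 replicate 1 or 2 or treated replicate 1 (edgeR adjusted p up to 0.0765). None of the 13 called genes of these 2 lists passed in all 9 refits. Of 12 immediate early genes Fos was higher, and of 19 chaperone genes Hspa1a and Hspb1 were, few calls beside the 5.78% of all tested genes.

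Several lists had few or no calls. Beside the 45.6% of all tested genes within 2-fold of D4, of 26 cholesterol and fatty acid synthesis genes 23 were within 2-fold of D4 and none was called by edgeR (1 lower in DESeq2, 0 higher and 3 lower at an unadjusted p under 0.05). This list's median was 0.45 in the untreated step and -0.47 against untreated D4H8. There, 6 of the 26 were lower and none higher, beside 4.40% of all tested genes lower. Of 12 NRF2 targets 10 were within 2-fold and none was called by edgeR (1 higher and 1 lower in DESeq2, 5 and 2 at an unadjusted p under 0.05). Of 13 iron genes 9 were within 2-fold and none was called by edgeR (2 higher in DESeq2, 2 higher and 1 lower at an unadjusted p under 0.05). Of 13 H3K27 demethylase and PRC2 genes 10 were within 2-fold and 1, the methyltransferase Ezh2, was lower at -0.65 ± 0.15 (edgeR adjusted p = 0.0244), while DESeq2 called Kdm6b higher and Ezh2 and Rbbp4 lower. Of 17 other JmjC demethylase genes 13 were within 2-fold and 1, Jmjd6, was lower in edgeR and in DESeq2, at -0.62 ± 0.18. Both calls were lost without D4 replicate 1 or 2 (edgeR adjusted p up to 0.109 and 0.145) and in further refits, and Ezh2 was also among the genes within 2-fold.

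The other large falls below D4, among genes that some untreated stage matched, were in Dbx1, Hes5, Fam181b, Hk3, Olig2 and Grrp1. Fam181b had 2.06, 0.296 and 3.04 CPM in treated and 13.6, 13.6 and 18.9 at D4, and Grrp1 8.07, 2.07 and 8.27 and 47.4, 50.7 and 35. The hexokinase gene Hk3, which overlaps Unc5a and is uncertain for that reason, had 2.67, 0.118 and 0.804 and 9.61, 10.1 and 7.91. The rule for named genes required that all 6 had treated libraries below every D4 library. All but Hk3 passed in all 9 refits. Without D4 replicate 1 or 2, the edgeR adjusted p of Hk3 was 0.0801 and 0.077. The counting strand was not stated. Ankrd37, Nefm, Nefl, Efcc1, Dll4, Fgf15, Rmst, Slc30a1, Mt2, Hoxd3 and Hoxd4 overlap other tested genes as well, and Ldha, Pgk1, Aldoa, Eno1, Mt1 and Mt2 have near-identical copies in the genome, so that their reads could be split or shared.

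Genes of the later course were read in libraries that the comparison did not use. From D5 to D6, 2932 genes rose and 2300 fell in the untreated cells, by a fit on those 6 libraries. Of the 2590 risers that could be tested here, 357 (13.8%) were higher in treated D4H8 than at D4 and 39 (1.51%) lower, beside 5.78% and 5.02% of all genes. Of the 2276 fallers, 91 (4.00%) were higher and 382 (16.8%) lower. Without D4 replicate 1 or 2 the share of risers called higher was 0.684% or 0.647%. Their median differences from D4 were 0.40 and -0.27 in treated cells and 0.22 and -0.12 in untreated D4H8 cells. Within 2-fold of D4 were 992 (38.3%) of the risers and 1155 (50.7%) of the fallers, beside 45.6% of all genes.

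Over all tested genes, the treated libraries did not share a nearest stage. By the mean absolute difference in log2 CPM, treated replicate 1 was 0.610 from D4 and 0.533 from untreated D4H8. Replicate 2 was 0.706 from D4 and 0.762 from D4H8, and replicate 3 was 0.461 and 0.525. Thus 2 of 3 were nearer to D4, and all 3 were 0.711 to 0.962 from D5 and 0.988 to 1.23 from D6. Untreated D4 libraries were 0.266 to 0.369 from the mean of the other D4 libraries, less than any treated library was from any stage.

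**Figure D5:**
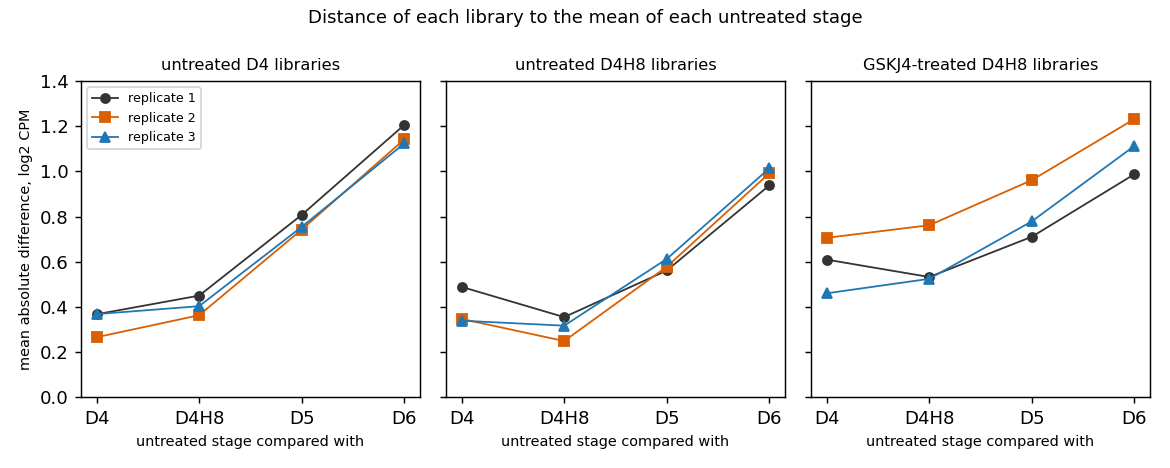
Mean absolute difference in log2 CPM over 16853 genes between each library (symbols) and the mean of each untreated stage on the x axis, its own library left out. Treated libraries, at 0.461 or more from every stage, are farther from D4 and D4H8 than the untreated libraries of those stages are from their own.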

How the data were processed

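Raw counts per gene were deposited by the authors, who, per the labels, made them with HISAT2 on mm10, SAMtools and HTSeq from poly(A) RNA, and they deposited FPKM values of the same libraries, computed from those counts and gene lengths. FPKM values served only for an alternative scale of the distances. The counting strand was not given in the sources used here. Gene positions came from the GENCODE M21 annotation of GRCm38 and promoters from RefSeq. Groups of 3 libraries (treated D4H8, D4, untreated D4H8) were fitted together in edgeR 4.0.16 (TMM scaling, filterByExpr with a minimum count of 10, robust quasi-likelihood) and contrasts were called at an adjusted p of 0.05, with a common biological coefficient of variation of 0.253. Equivalence used 1-sided quasi-likelihood tests against both limits of 1 on the log2 scale. The fits were also run on counts simulated with the same spread for every gene and with independent libraries. That check cannot cover a library that stands apart or libraries that vary together, as seen here. Named genes had a mean of at least 100 counts in the higher group, no overlap between groups and no predicted-gene symbol, and the 6 (raised in both: 4) largest changes per class were taken, beside members of 25 pathway and 9 marker lists. The members and lists were chosen with earlier results of these data known. Same-numbered D4 and untreated D4H8 libraries deviated together (r = 0.33, 0.113 and 0.336 over genes). Same-numbered treated and D4 libraries did so more weakly (0.0843, 0.0462 and 0.174). For same-numbered treated and untreated D4H8 libraries the values were 0.485, 0.0786 and 0.288. Alternatives were DESeq2 1.42.0, other scalings, filters, libraries and leave-one-out fits. The 9 libraries held 14982115 to 34383842 reads, which leaves low genes limited by counting error. Some withheld items are not reported here.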

Additional observations from a re-analysis of the deposited data

How the results depend on the processing

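Leaving out 1 of the 9 libraries gave 35 to 1613 genes higher and 101 to 1320 lower than D4 and 5336 to 8276 within 2-fold. The untreated step had 6 to 321 raised and 1 to 14 lowered genes, and of the raised ones 2 to 126 were above D4, 0 to 79 stayed and 0 to 19 fell below it. Of the lowered ones 0 to 7 stayed and 0 to 6 were below D4. There were 9 to 537 genes above and 39 to 226 below the course, and 107 to 1235 higher and 188 to 838 lower than untreated D4H8. Of D5 to D6 risers 0.647% to 20.7% were higher and 0.418% to 1.83% lower, and of fallers 0.175% to 7.06% and 1.80% to 25.5%. The 6 named genes that stayed at D4 crossed 0 in these refits, with ranges of -0.24 to 0.40 for Dll4, -0.081 to 0.26 for Ebf2, -0.12 to 0.35 for Lzts1, -0.21 to 0.38 for Prmt8, -0.22 to 0.48 for Rgs8 and -0.53 to 0.35 for Rhbdl3. DESeq2, which gave a value to 32710 genes, called 1397 lower than D4, 405 raised and 30 lowered in the step (153 above, 96 at and 16 below D4 among the raised, 14 at and 8 below among the lowered), 210 below the course, and 1498 higher and 1180 lower than untreated D4H8. With no filter, also on 32710 genes, these were 1391, 577 and 82 (215, 156 and 35; 16 at, 41 below and 6 above D4), 201, 1448 and 1410, and 6.83% of fallers were higher. With at least 10 counts in every library, 1 lowered step gene stayed at D4 and 1 was below it. The replicate block gave 270 raised step genes, 49 of them at and 10 below D4, and 7 lowered, 2 of them at D4, and Rhbdl3 was -0.074 under it. The block moved neither the 974 nor the 846 by over 1.5 times. The labels do not say that same-numbered treated and D4 libraries were grown together. Fits on each contrast's own 6 libraries called 162 higher and 161 lower, 546 raised and 58 lowered in the step (45 above, 128 at and 11 below D4; 26 at and 6 below), 64 above and 49 below the course, and 315 higher and 280 lower than untreated D4H8, with 2.60% and 0.640% of risers and 0.798% and 2.88% of fallers higher and lower. With all 21 libraries, 413 rose and 9 fell in the step (172, 101 and 12; 5 at and 4 below). A 1.5-fold margin left 0 genes within it, and 0 step genes. Against only D4 and D4H8 libraries, 467 genes were above and 343 below. Among fallers of at least 2-fold, 6.41% were higher. The other counts stayed within 1.5 times of those reported, 2 of 3 treated libraries stayed nearer to D4 in FPKM, and the cause of these shifts was not tested. Of 3 libraries a group, low genes rest on few reads, with 2 to 9 for Fgf15.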

Other observations

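Members of further gene groups, chosen after their values were seen, lay outside the untreated course. The counts of these groups are in part fixed by that choice and are no test. Of all tested genes, 5.78% were higher and 5.02% lower than D4, and 1.82% were above and 0.783% below the course. Of 40 lysosomal enzymes and membrane proteins, 19 were higher in treated cells than at D4 and none lower in edgeR (20 and 0 in DESeq2, 26 and 0 at an unadjusted p under 0.05), with a median of 0.67, and 15 were above the course. They include the cathepsin Ctsd and the membrane protein Lamp1. Ctsd had 258, 178 and 242 CPM in treated libraries, 136, 154 and 151 at D4 and 141, 149.7 and 131 at untreated D4H8 (difference from D4 0.64 ± 0.17, edgeR adjusted p = 0.0365). None of the 19 passed in all 9 refits, with edgeR adjusted p up to 0.158 for Ctsd when 1 library was left out.

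Of 31 tested interferon-stimulated and antigen presentation genes, 11 were higher and none lower in edgeR (14 and 0 in DESeq2, 16 and 0 at an unadjusted p under 0.05), with a median of 0.82, and all 11 were above the course. Tap1, a peptide transporter of antigen presentation, had 52.1, 29.3 and 36.3 CPM in treated libraries, 15.2, 15.9 and 18.8 at D4 and 9.37, 12.2 and 20.2 at untreated D4H8 (difference from D4 1.26 ± 0.30, edgeR adjusted p = 0.0254). None of the 11 passed in all 9 refits, with edgeR adjusted p up to 0.119 for Tap1. The summed fibroblast and blood markers were also higher in treated libraries, the latter at 6.19 to 7.19 CPM against 3.92 to 4.50 at D4, and their part in these rises was not tested. The blood sum is low. Of its 5 genes only Cd68 had enough reads to be tested, and it was not called. Hbb-bs and Ptprc were at 3 counts or fewer in every treated library.

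Of 14 further glycolysis enzymes and lactate transporters, 7 were lower and none higher in edgeR (7 lower and 1 higher in DESeq2, 9 and 2 at an unadjusted p under 0.05), with a median of -0.73, 6 were below the course, and 3 passed in all 9 refits. Gapdh, often used as a reference gene, had 54.3, 79.8 and 108 CPM in treated libraries, 265, 153 and 173 at D4 and 109, 145 and 167 at untreated D4H8 (difference from D4 -1.25 ± 0.28, edgeR adjusted p = 0.0213). It has pseudogene copies that could share its reads. Slc16a3, a lactate exporter, had 18.3, 16.4 and 42.4 against 92.9, 126 and 168 (-2.31 ± 0.38, edgeR adjusted p = 0.00868).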
